A study of Mus musculus with 2 samples.

Results

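Cell cycle and mitosis genes were examined in 2 RNA-Seq libraries of whole mouse brain at E17.5. The 44 genes were given as a list of symbols and were found by symbol in the mm9 gene models, where 37310 genes are annotated. For the comparison of phases, 18 were taken as S-phase genes, 24 as mitotic genes, and the D cyclins Ccnd1 and Ccnd2 were put in neither group. Both libraries came from F1 hybrid embryos of reciprocal crosses between the strains C57BL/6J and CastEi/J (CAST/EiJ in the study's text), with no further treatment or engineered allele. The BxC embryo had the C57BL/6J mother and the CastEi/J father, and the CxB embryo had the CastEi/J mother and the C57BL/6J father. There was 1 library per cross, each from 1 unpooled brain by the study's methods, so no value below has a replicate and no test between the crosses could be made.

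The counts on the lines of the deposited alignments, taken as reads, summed to 128944754 for BxC and 109719746 for CxB. Both totals are above the mean yield per library that the study's methods give. Levels are given as RPKM, which is reads over all exon bases of a gene per kilobase of exon and per 1000000 reads of the library. Ratios are given as the log2 of the CxB level over the BxC level, so that a negative value is a lower level in the CxB library. Intervals are at 95% (exact Poisson for levels, exact binomial for ratios). They cover counting error only, and reads copied by PCR are not independent molecules. The labels give no sex, and the study's methods list a male CxB brain and both male and female BxC brains at E17.5, without saying which BxC brain was deposited. The BxC library held 142957 reads over Xist, which is transcribed from the inactive X chromosome of females, and 0 reads over the Y-linked genes Ddx3y, Eif2s3y, Kdm5d and Uty. The CxB library held 38 reads over Xist and 2916 over Eif2s3y. The direction of the cross, the embryo, its sex by these transcripts and the library preparation cannot be told apart in any ratio below.

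A dividing cell copies its DNA in S phase and separates the copies in mitosis. D cyclins start the passage through G1, E cyclins and the E2F factors open S phase, and the MCM helicase is loaded onto origins before copying and unwinds DNA during it. Cyclins A and B with Cdk1 drive the cell into mitosis, where Aurora and Polo kinases, kinesins and kinetochore proteins build the spindle and the checkpoint holds Cdc20 until all chromosomes are attached. In the fetal brain, division is largely a property of radial glia and intermediate progenitors near the ventricles, while most cells of the late fetal brain are neurons that have left the cycle. Transcripts of S-phase genes are commonly driven by E2F sites, and those of mitotic genes by a CHR element together with CCAAT boxes.

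Promoter sequences were taken from RefSeq on the build GRCm38.p6, from 250 bases before to 50 bases after each start, and 35 of the 44 genes had an entry. Tpx2, Ccne2, Ccnd2, Ccna2, Ccnd1, Foxm1, Mcm4, Aurkb and Gmnn had none. The CHR element was searched on both strands by its letters TTTGAA. The CCAAT box was searched on both strands as well. An E2F match was, on either strand, the run TTCCCGC or else the longer run TTTGGCGC. The letters of 1 pair of matches overlapped, an E2F and a CCAAT match in Prim1. The promoters of the S-phase and the mitotic gene with the highest levels, Pcna and Cdc20, are shown with those of Mcm6, Pola1, Ccnb2 and Kif23. The last 4 were chosen after their values were seen, Mcm6 and Pola1 for their repeated E2F matches, Ccnb2 for its row of CCAAT boxes, and Kif23 for the lowest ratio. Capitals mark every match of these motifs.
Pcna (chr2:132253131-132253430, minus strand): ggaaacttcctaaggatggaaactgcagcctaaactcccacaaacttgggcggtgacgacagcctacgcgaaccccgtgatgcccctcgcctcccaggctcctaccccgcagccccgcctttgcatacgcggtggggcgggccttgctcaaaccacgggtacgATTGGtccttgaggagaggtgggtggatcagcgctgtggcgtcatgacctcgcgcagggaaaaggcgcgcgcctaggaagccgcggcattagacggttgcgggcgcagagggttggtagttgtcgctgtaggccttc
Mcm6 (chr1:128359656-128359955, minus strand): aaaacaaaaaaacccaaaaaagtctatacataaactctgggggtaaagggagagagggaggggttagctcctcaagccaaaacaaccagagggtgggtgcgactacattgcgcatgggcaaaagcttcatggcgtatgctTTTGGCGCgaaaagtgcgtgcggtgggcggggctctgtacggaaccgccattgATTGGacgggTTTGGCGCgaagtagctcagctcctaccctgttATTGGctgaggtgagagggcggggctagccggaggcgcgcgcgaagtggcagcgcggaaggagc
Pola1 (chrX:93632106-93632405, minus strand): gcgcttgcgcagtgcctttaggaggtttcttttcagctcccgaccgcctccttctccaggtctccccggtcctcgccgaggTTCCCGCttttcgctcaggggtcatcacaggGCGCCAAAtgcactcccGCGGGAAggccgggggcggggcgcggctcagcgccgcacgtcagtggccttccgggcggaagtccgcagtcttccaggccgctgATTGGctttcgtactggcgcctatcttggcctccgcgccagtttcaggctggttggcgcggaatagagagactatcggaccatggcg
Cdc20 (chr4:118437294-118437593, minus strand): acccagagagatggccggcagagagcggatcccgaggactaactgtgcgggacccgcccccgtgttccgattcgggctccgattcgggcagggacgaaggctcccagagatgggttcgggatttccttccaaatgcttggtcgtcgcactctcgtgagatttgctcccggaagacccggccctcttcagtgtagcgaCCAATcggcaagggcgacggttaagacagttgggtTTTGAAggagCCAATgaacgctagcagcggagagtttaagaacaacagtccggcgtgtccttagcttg
Ccnb2 (chr9:70421505-70421804, minus strand): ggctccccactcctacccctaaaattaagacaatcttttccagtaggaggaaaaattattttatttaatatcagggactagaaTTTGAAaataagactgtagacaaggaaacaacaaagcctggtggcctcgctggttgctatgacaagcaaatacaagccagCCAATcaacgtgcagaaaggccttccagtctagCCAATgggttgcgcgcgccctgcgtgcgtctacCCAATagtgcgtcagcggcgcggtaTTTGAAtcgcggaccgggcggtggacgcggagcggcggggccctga
Kif23 (chr9:61946750-61947049, minus strand): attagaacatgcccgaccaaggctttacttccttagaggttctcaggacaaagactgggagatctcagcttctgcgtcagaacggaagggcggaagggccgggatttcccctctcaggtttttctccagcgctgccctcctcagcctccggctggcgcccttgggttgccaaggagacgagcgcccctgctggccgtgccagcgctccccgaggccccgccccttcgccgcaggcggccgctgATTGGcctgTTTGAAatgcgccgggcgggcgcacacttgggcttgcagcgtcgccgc

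CHR and E2F matches in these windows divided along the phases, while CCAAT was common in both. A CHR match was found in 16 of 21 promoters of mitotic genes (76.2%), in 1 of 16 promoters of S-phase genes (6.25%, Mcm2), and in 17.9% of all 32851 RefSeq mouse promoters of this length. E2F matches were in 10 of 16 S-phase promoters (62.5%), in 0 of 21 mitotic promoters and in 5.06% of all promoters. CCAAT was in 81.0% of mitotic and 68.8% of S-phase promoters, against 37.4% of all promoters. CHR and CCAAT occurred together in 14 mitotic promoters (66.7%), against 6.95% of all promoters. Of the 15 mitotic genes with a CHR match, 14 had one at most 50 bases from the start. In Ccnb2, which encodes cyclin B2, 3 CCAAT boxes stood at -87, -54 and -21 and a CHR match at 4, counted from the start at 0. The window of Pcna, the clamp of the DNA polymerases, held a single CCAAT box and neither of the other motifs. A match is only a run of letters, and no binding was measured here. Other forms of the E2F site were not searched. Median GC was 60.7% in mitotic and 59.5% in S-phase promoters against 52.7% in all promoters, which were not matched for it.

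**Figure D1:**
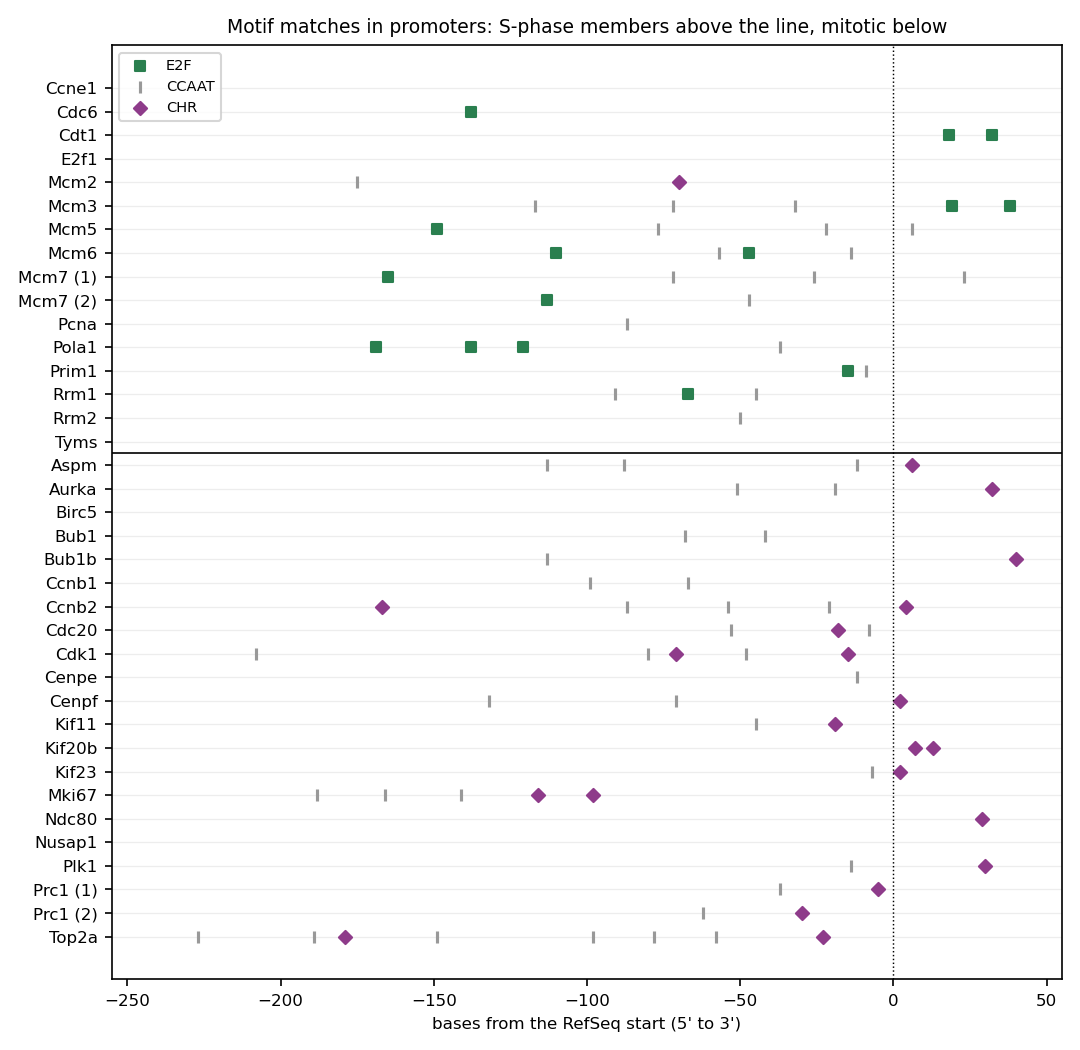
Positions of CHR (purple diamonds), CCAAT (grey ticks) and E2F (green squares) matches from 250 bases before to 50 after the RefSeq start, 1 row per promoter, with 16 S-phase promoters above the line and 21 mitotic promoters below. Green squares lie only above the line, and 16 of the 17 promoters with a purple diamond lie below it.

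The cell cycle genes were measured in both libraries at low to moderate levels, and all 44 had at least 100 reads in each. Their summed reads were 0.0892% of the BxC library and 0.0832% of the CxB library. The median level was 3.26 RPKM in BxC and 2.81 RPKM in CxB, against 5.11 and 5.13 RPKM over the 15427 annotated genes with at least 100 reads in each library. S-phase genes had a median of 3.80 RPKM in BxC and 3.85 in CxB. Mitotic genes had a median of 1.96 RPKM in BxC and 1.83 in CxB. Both groups spanned a wide range over all exons, from 0.606 (Tyms) to 19.2 RPKM (Pcna) among S-phase genes and from 0.574 (Ndc80) to 13.9 RPKM (Cdc20) among mitotic genes in BxC. Over coding bases in BxC, Tyms had 2.37 RPKM and the lowest S-phase gene was Pola1 at 0.916 RPKM. In whole brain RNA, fewer dividing cells and less RNA per dividing cell cannot be told apart.

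**Figure D2:**
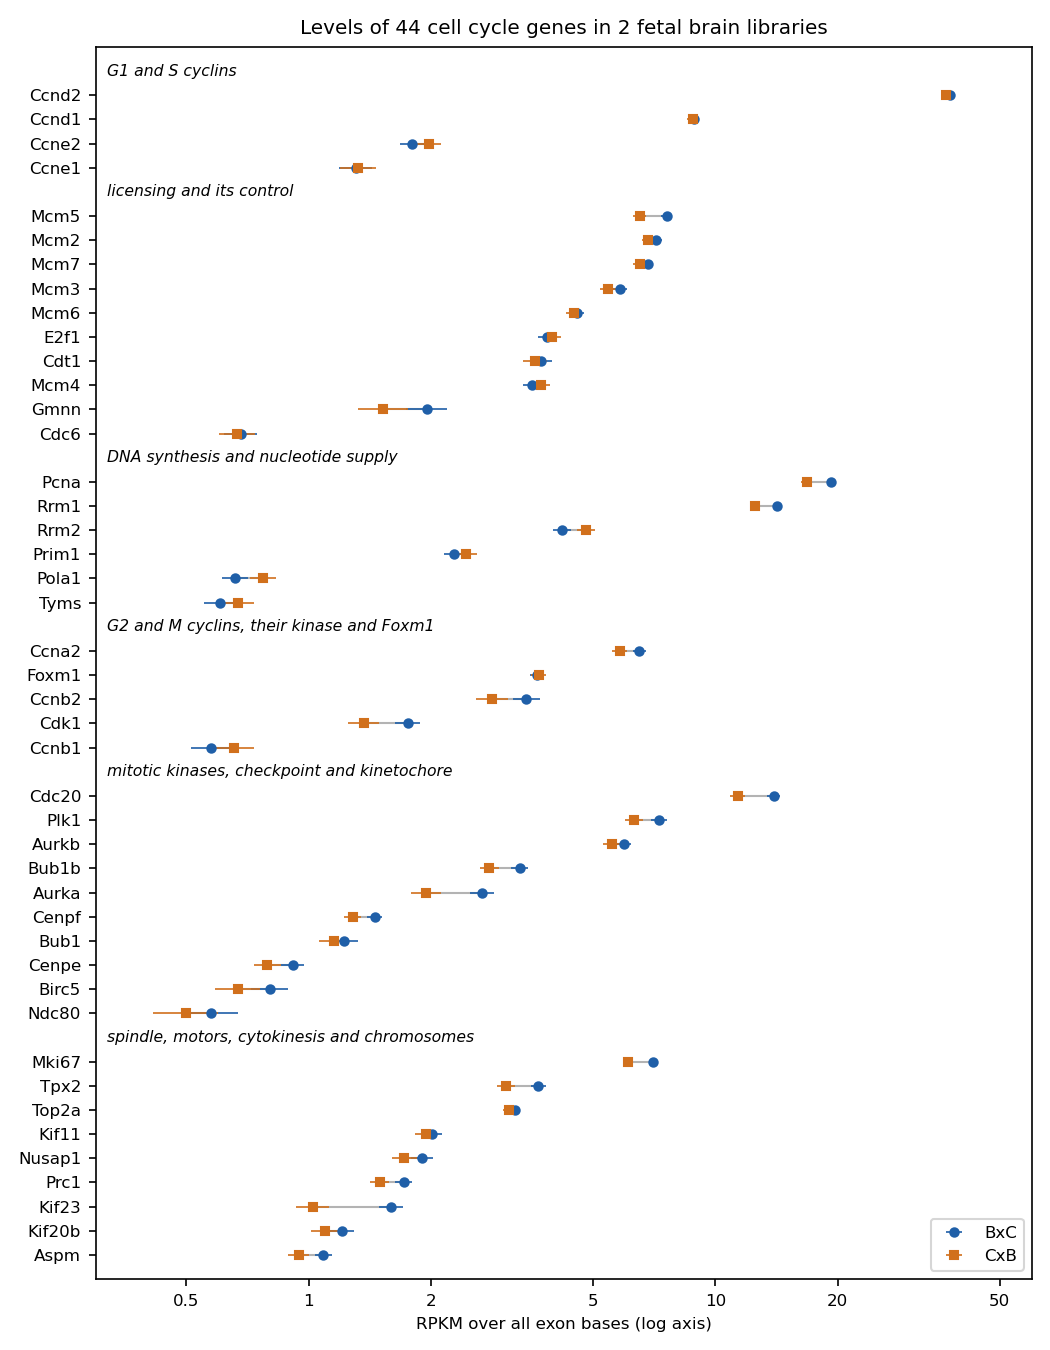
RPKM over all exon bases on a log axis for the 44 genes in BxC (blue circles) and CxB (orange squares), grouped by role, with 95% Poisson intervals. Ccnd2 is highest at 37.6 and 37.0 RPKM and Ndc80 lowest at 0.574 and 0.501 RPKM.

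Mitotic genes were mostly lower in the CxB library, and single S-phase genes lay on both sides of equality. The ratio was below 0 for 22 of 24 mitotic genes, with Ccnb1 and Foxm1 as the exceptions, and for 10 of 18 S-phase genes, where 50.4% of the 15427 genes lay below 0. The median log2 ratio was -0.20 for mitotic genes (87.1% of the BxC level), -0.03 for S-phase genes (98.1%), and -0.02 for the D cyclins. The median over all 15427 genes was -0.001, with an interquartile range of -0.0957 to 0.0961. The interquartile range was -0.26 to -0.13 for mitotic genes and -0.09 to 0.09 for S-phase genes. The medians of the groups differed by 0.17 on the log2 scale, or 1.13-fold. Averaged over the middle genes of a group, the counting interval was -0.42 to 0.02 for mitotic genes. For the difference it was -0.09 to 0.44, and both held 0. The middle mitotic genes were Plk1 and Ndc80, the latter on 163 and 121 reads. Such an interval is the error of single genes, not of a median over 24. Over summed reads, in which genes with many reads weigh most, the log2 ratio was -0.18 (-0.20 to -0.16) for mitotic genes. It was -0.08 (-0.10 to -0.05) for S-phase genes. The ranges of single ratios overlapped, from -0.64 to 0.19 for mitotic and from -0.35 to 0.23 for S-phase genes. Of the 10 genes with the lowest ratios 8 were mitotic, and of the 10 with the highest 8 were S-phase genes.

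Few single genes passed a fixed limit. Of the 44 genes 1, Kif23, had a ratio past -0.5, a limit passed in this direction by 1.16% of all genes tested, and none was past 0.5, which 0.901% of genes passed. Past -0.25 were 8 genes, 7 of them mitotic and the eighth Gmnn, where 6.91% of all genes lay, and none was past 0.25, where 6.74% lay. With distinct positions counted in place of reads, only 4 of the 42 genes with at least 100 positions were past -0.25 (Kif23, Aurka, Cenpf and Bub1), against 3.27% of all genes so counted. The counting interval lay wholly below 0 for 17 mitotic and 5 S-phase genes, against 25.8% of all genes. It lay wholly above 0 for 2 S-phase genes, Rrm2 and Pola1, and no mitotic gene, against 25.4%. Since about this share of all genes was outside counting error in each direction, an interval that leaves out 0 does not set a gene apart from the general difference between these libraries.

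**Figure D3:**
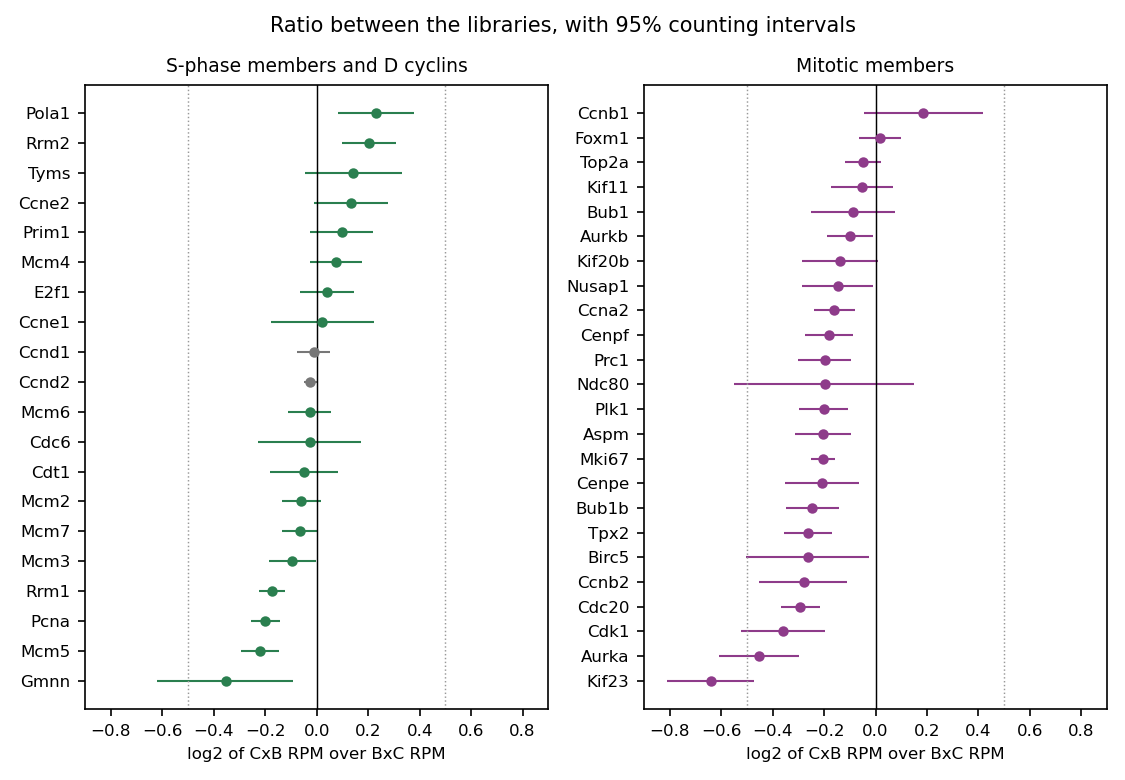
Log2 of the CxB level over the BxC level with 95% counting intervals for S-phase genes (green), D cyclins (grey) and mitotic genes (purple), sorted by value; dotted lines mark -0.5 and 0.5. Of the mitotic genes 22 of 24 lie left of 0, and the S-phase genes lie on both sides.

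Cyclins of G1 and of entry into S phase differed little between the libraries. Ccnd2, on chr6:127075797-127101066 of mm9, was the highest of all 44 genes at 37.6 RPKM in BxC and 37.0 in CxB. Ccnd1, the other D cyclin among the 44, stood at 8.87 and 8.80 RPKM, so that Ccnd2 was 4.24 times as high in BxC and 4.20 times in CxB over all exons, and 7.18 and 6.70 times over coding bases. These cyclins bind Cdk4 and Cdk6 and start the phosphorylation of the retinoblastoma protein. Ccne2 had 1.80 RPKM in BxC and 1.97 in CxB (log2 0.13), and Ccne1 had 1.31 and 1.33 RPKM (log2 0.02). Both encode cyclin E, the partner of Cdk2 at the start of S phase, and the intervals of both ratios held 0. E2f1, a transcription factor that activates S-phase genes, had 3.86 RPKM in BxC and 3.97 in CxB, with an interval of the log2 ratio from -0.07 to 0.14.

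Of the 10 genes of origin licensing and its control, E2f1 among them, 8 were lower in CxB, with a median log2 ratio of -0.05. The 6 subunits of the MCM helicase, Mcm2 to Mcm7, lay between 3.54 (Mcm4) and 7.58 RPKM (Mcm5) in BxC and between 3.73 (Mcm4) and 6.85 RPKM (Mcm2) in CxB. They form a ring with 1 copy of each subunit. Their levels lay within 2.14 times of each other in BxC over all exons. Over coding bases, Mcm5 was 3.16 times as high as Mcm4 in BxC and 2.38 times in CxB. Between the libraries, Mcm5 had the lowest log2 ratio of the 6 subunits, -0.22, and Mcm4 the highest, 0.08. With distinct positions counted in place of reads, these were 0.01 and -0.01. Mcm2 (-0.06), Mcm6 (-0.03) and Mcm7 (-0.07) had intervals that held 0, while that of Mcm3 (-0.09) just missed it. Cdt1, which brings the helicase to origins, had 3.73 RPKM in BxC and 3.61 in CxB. Geminin (Gmnn), which binds Cdt1 and prevents a further round of loading, had 1.95 and 1.53 RPKM and, over all exons, the lowest ratio of the S-phase genes at -0.35 (-0.62 to -0.09). It rested on 299 and 199 reads. Cdt1 was therefore 1.91 times as high as Gmnn in BxC and 2.36 times in CxB. Cdc6, the other loading factor, was low at 0.681 and 0.668 RPKM.

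The genes of DNA synthesis and nucleotide supply held both the highest levels and the highest ratios among S-phase genes by reads over all exons. Pcna, on chr2:132074898-132079050 of mm9, had 19.2 RPKM in BxC and 16.8 in CxB (log2 -0.20, but 0.07 by distinct positions). Rrm1 and Rrm2 encode the subunits of ribonucleotide reductase, which makes deoxyribonucleotides, and went opposite ways. Rrm1 had 14.1 RPKM in BxC and 12.5 in CxB (log2 -0.17, -0.23 to -0.12). Rrm2 had 4.19 and 4.82 RPKM (log2 0.20, 0.10 to 0.31), which put Rrm1 at 3.38 times Rrm2 in BxC and 2.60 times in CxB over all exons, but at 1.81 and 1.35 times over coding bases. Among the genes of primer synthesis, Pola1, the catalytic subunit of polymerase alpha, had 0.659 RPKM in BxC and 0.773 in CxB. Its ratio of 0.23 (0.08 to 0.38) was the highest of the 44 by reads over all exons, but not over coding bases, where Rrm2 had 0.26, nor by distinct positions, where Ccnb1 had 0.21. Pola1 is the only one of the 44 on the X chromosome. That chromosome held 2.88% of BxC and 2.72% of CxB reads, of which 142957 and 38 reads lay over Xist. Prim1, the primase subunit, had 2.28 and 2.44 RPKM (log2 0.10). Tyms, which makes thymidylate, had 0.606 and 0.669 RPKM (log2 0.14), and the intervals of both held 0.

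Of the cyclins of G2 and mitosis, Ccna2 and Ccnb2 were lower in CxB, and the ratio of Ccnb1 was above 0 with an interval that held 0. Ccna2 was the highest of the group, with 6.50 RPKM in BxC and 5.82 in CxB (log2 -0.16, -0.24 to -0.08). Ccnb2 had 3.43 and 2.83 RPKM (log2 -0.28, -0.45 to -0.11, but -0.11 by distinct positions). Ccnb1, which encodes the B cyclin that is essential in mice, had only 0.577 RPKM in BxC and 0.657 in CxB (log2 0.19, -0.05 to 0.42). Its exons had the smallest share of windows of 36 bases that are unique in the genome, 61.5%, and reads covered 37.4% of its coding bases in BxC and 40.0% in CxB, the least of the 44 genes. Only 21.3% of its reads in BxC and 23.7% in CxB were on its own strand, where 43.2% and 42.6% of reads over all coding genes were, so most of the level printed for Ccnb1 was from reads on the other strand. Ccnb2 was 5.94 times as high as Ccnb1 in BxC and 4.30 times in CxB over all exons, but 3.25 and 2.51 times over coding bases. Cdk1, the kinase that these cyclins activate, had 1.75 RPKM in BxC and 1.37 in CxB (log2 -0.36, -0.52 to -0.20). Foxm1, a transcription factor of G2 and mitotic genes, had 3.64 and 3.68 RPKM. Its ratio was 0.02 (-0.07 to 0.10), although 22 of the other 23 mitotic genes were lower in CxB. With distinct positions counted in place of reads, the ratio of Foxm1 was -0.07.

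All 10 genes of mitotic kinases, the checkpoint and the kinetochore were lower in CxB over all exons, with a median log2 ratio of -0.20, and all but Aurkb were lower over coding bases. Cdc20, which activates the ligase that ends mitosis, lies on chr4:118105506-118109957 of mm9. Over all exons it was the highest mitotic gene at 13.9 RPKM in BxC and 11.3 in CxB (log2 -0.29, -0.37 to -0.21). Over coding bases in CxB it was below Ccna2, at 8.51 against 8.73 RPKM. Aurka, the Aurora kinase of the centrosome, had 2.67 and 1.95 RPKM, and its log2 ratio of -0.45 (-0.61 to -0.30) was the second lowest of all 44. Aurkb, the Aurora kinase of the centromere and midzone, had 5.95 and 5.56 RPKM (log2 -0.10, and 0.02 over coding bases). Its partner survivin (Birc5) had 0.804 and 0.670 RPKM (log2 -0.26, -0.50 to -0.03). Over coding bases Birc5 had 3.74 and 3.26 RPKM, and Aurkb was only 1.17 times as high in BxC and 1.36 times in CxB. Plk1, the Polo kinase, had 7.27 RPKM in BxC and 6.32 in CxB (log2 -0.20, but -0.06 by distinct positions). Of the checkpoint genes, Bub1b had 3.30 and 2.78 RPKM (log2 -0.25) and Bub1 had 1.23 and 1.15 RPKM (log2 -0.09, with 0 inside its interval). At the kinetochore, Cenpf (1.46 and 1.28 RPKM), Cenpe (0.914 and 0.792 RPKM) and Ndc80 (0.574 and 0.501 RPKM) had log2 ratios of -0.18, -0.21 and -0.20. Ndc80 had 163 and 121 reads, and its interval, -0.55 to 0.15, was the widest among the mitotic genes.

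All 9 genes of the spindle, cytokinesis and chromosomes were lower in CxB as well, with a median log2 ratio of -0.20. Kif23, a kinesin of the central spindle needed for cytokinesis, had the lowest ratio of all 44 genes. It lies on chr9:61765087-61794606 of mm9 and had 806 reads and 1.60 RPKM in BxC against 440 reads and 1.02 RPKM in CxB, a level 1.56 times as high in BxC (log2 -0.64, -0.81 to -0.47). Counted by distinct alignment positions in place of reads, its log2 ratio was -0.43. Prc1, which bundles the midzone microtubules that Kif23 works on, had 1.71 and 1.49 RPKM (log2 -0.20). Mki67, the proliferation marker Ki-67 that coats mitotic chromosomes, had 9105 reads and 7.01 RPKM in BxC and 6723 reads and 6.08 RPKM in CxB (log2 -0.20, -0.25 to -0.16). Top2a, which untangles sister DNA, had 3.21 and 3.11 RPKM (log2 -0.05, with 0 inside its interval). Tpx2, which activates Aurka on the spindle, had 3.67 and 3.06 RPKM (log2 -0.26). The spindle kinesin Kif11 (2.01 and 1.94 RPKM), the spindle protein Nusap1 (1.90 and 1.72 RPKM) and the kinesin Kif20b (1.21 and 1.10 RPKM) had log2 ratios of -0.05, -0.15 and -0.14. By distinct positions these were -0.12, -0.24 and -0.02. Aspm, a spindle pole protein whose loss causes microcephaly, had 1.09 and 0.945 RPKM (log2 -0.20, -0.31 to -0.09).

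Other genes of the cycle were counted in 4 further lists that held none of the 44. Of 40 other replication and S-phase genes, 21 were below 0 (50.4% of all genes), with a median of -0.01. At a limit of 0.25, 2 were higher and 4 lower in CxB, where 6.74% and 6.91% of all genes lay. The highest levels were those of Rfc2, of the clamp loader (20.9 and 19.8 RPKM), and of Gins2, of the replicative helicase complex (17.6 and 17.0 RPKM). Gins3 (0.42) and Dut (0.26) had the highest ratios, and Clspn, of the replication checkpoint, had -0.40. Of 45 other mitotic genes, 30 were below 0, with a median of -0.12, and 7 were past -0.25 and 2 past 0.25, to be read against the same shares of all genes. This list held the X-linked chromokinesin Kif4, with 2.25 RPKM in BxC and 1.46 in CxB (log2 -0.62, -0.74 to -0.50), and the checkpoint kinase Ttk (log2 -0.41). At the other end were Kif15 (0.30) and Ncapg (0.27), and the highest levels were those of Bub3 (30.2 and 29.0 RPKM) and Ncapd2 (15.9 and 14.4 RPKM).

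Of 18 genes that brake or end the cycle, 15 passed the read minimum. Their median log2 ratio was 0.09, inside the interquartile range of all genes, and 11 were above 0, as were 49.6% of all genes. Cdkn1c, an inhibitor of cyclin-dependent kinases, was the highest at 63.7 RPKM in BxC and 67.7 in CxB, followed by Fzr1, which keeps mitotic cyclins low in G1 (39.5 and 38.6 RPKM). E2f5 (0.41) and Btg1 (0.30) had the highest ratios, and Btg2 (-0.35) and Cdkn2c (-0.17) the lowest. Cdkn2a, Cdkn2b and Cdkn2d had fewer than 100 reads in a library. Of 14 other cyclins and cyclin-dependent kinases, 13 passed the minimum, with a median of 0.01 and none past 0.25. Cdk5r1, the neuronal activator of Cdk5, had 85.4 and 91.8 RPKM and Cdk4, the partner of the D cyclins, 54.7 and 52.0 RPKM. The ends were Ccna1 (0.17) and Ccnc (0.12), and Cdk6 (-0.13) and Cdk4 (-0.07). Ccnb3 had 0 reads in BxC and 1 in CxB. A count of 0 allows up to 3 reads, or 0.0233 per 1000000 reads in BxC.

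**Figure D4:**
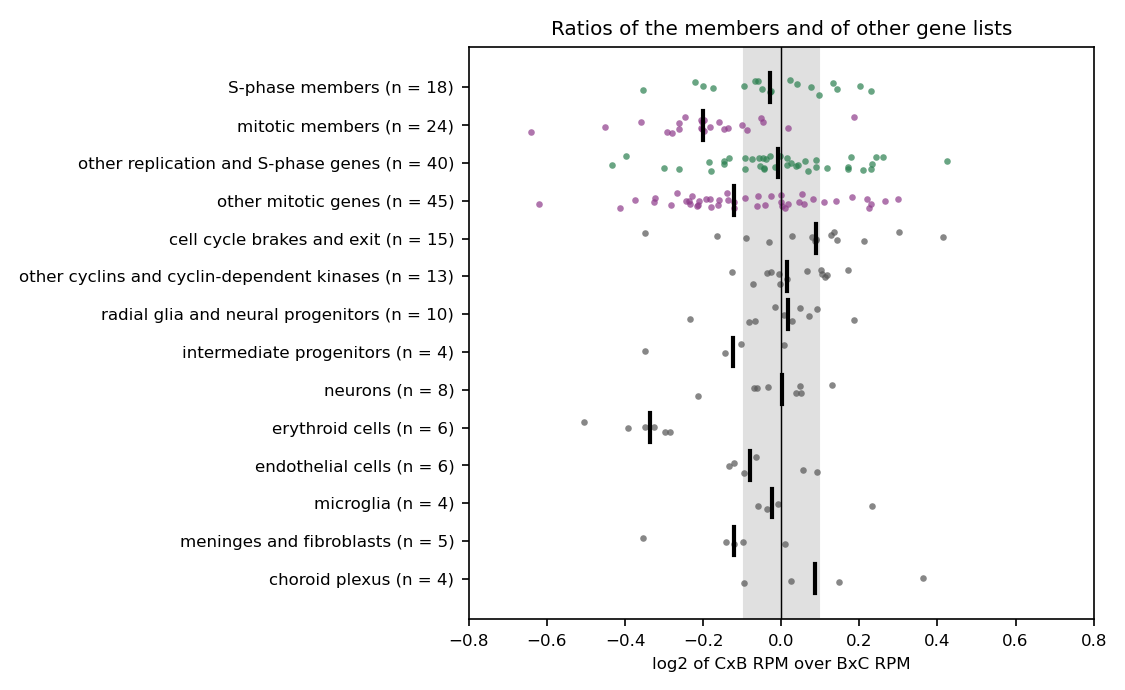
Log2 of the CxB level over the BxC level, 1 point per gene with at least 100 reads in each library, for the 2 phases, 4 further cell cycle lists and 8 lists of cell type markers. Black bars are medians and the grey band is the interquartile range of all 15427 genes, -0.0957 to 0.0961; the medians of mitotic genes (-0.20), other mitotic genes (-0.12) and erythroid genes (-0.34) lie left of the band, as do those of intermediate progenitors and of meninges and fibroblasts (both -0.12).

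Markers of cell types were read beside these ratios. The tissue was that of the label: neuronal markers were high (Tubb3, 974 and 840 RPKM), and radial glia markers were present (Sox2, 70.5 and 71.8 RPKM). Radial glia markers had a median of 0.02 over 10 genes, from -0.23 to 0.19, with 4 below 0 and 6 above. Their summed level was 340 RPKM in BxC and 352 in CxB, of which the highest gene held 152 and 160 RPKM. Which cells were dividing was not measured. Intermediate progenitor markers had a median of -0.12 over 4 of 5 genes that passed the minimum (37.2 and 35.2 RPKM summed over all 5), and those that passed were Insm1 (0.01), the highest at 17.3 and 17.4 RPKM, Neurog2 (-0.10), Eomes (-0.14) and Btg2 (-0.35), which is also on the list of brakes. Erythroid markers had the lowest median, -0.34: 6 of 8 passed, all 6 were lower in CxB, from -0.51 (Alas2) to -0.28 (Hba-a1), and the sum over all 8 was 341 RPKM in BxC and 275 in CxB. The globin genes have near-identical copies, so the split of reads between them is uncertain. Gata1, of erythroid precursors, had 12 reads in BxC and 9 in CxB. Markers of meninges and fibroblasts had a median of -0.12 (5 genes, 56.5 and 50.7 RPKM summed), from -0.35 (Col3a1) to 0.01 (Lum), and endothelial markers -0.08 (6 genes, 37.7 and 37.5 RPKM). Neuronal markers (8 genes, median 0.00, 2105 and 1962 RPKM summed), microglia (4 of 5 genes, -0.02, 20.2 and 21.1 RPKM over all 5) and choroid plexus (4 genes, 0.09, 258 and 285 RPKM) had medians within the interquartile range of all genes. The part of erythroid, meningeal or progenitor cells in the ratios of mitotic genes was not tested.

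The reads of several genes rested on few positions. Reads at one position and strand cannot be told from PCR copies, and the median over annotated genes was 2.99 reads per distinct position in BxC and 2.98 in CxB. Pcna had 5956 reads in BxC on 345 distinct positions, 17.3 reads per position, and its 10 deepest positions held 42.7% of them. Only 64.4% of its exon windows were unique, so a level over unique windows was higher, at 30.6 RPKM in BxC and 26.3 in CxB. Its log2 ratio was -0.37 over coding bases but 0.07 when positions were counted once, so its direction depended on what was counted. Cdc20 had 6.79 reads per position in BxC, and its ratio was -0.09 by positions. Ccnd2 (6.02) and Rrm1 (5.33) came next. For all other genes of the 44, this number lay between 1.52 (Ndc80) and 4.24 (Aurkb) in BxC. With distinct positions counted, the sign of the ratio changed for 8 of the 44 genes, 6 of them S-phase genes (Ccne1, Ccne2, Mcm4, Mcm5, Pcna and Tyms), with Ccnd2 and, as the 1 mitotic gene, Foxm1. The ratio of Rrm2 was then 0.02 and that of Pola1 0.07. The median was -0.05 for S-phase and -0.19 for mitotic genes. How many of all annotated genes changed sign in this way was not counted, so the 8 are not set apart from them. By reads, Ccne1 (0.02), Foxm1 (0.02) and Ccnd2 (-0.03) were near 0, while Mcm5 (-0.22) and Pcna (-0.20) were not.

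Read depth was uneven along the transcripts and was repeated from one library to the other. Over the longest coding transcript of each gene, the 3′ 50% had a median of 0.637 of the depth of the 5′ 50% in BxC and 0.676 in CxB. When each transcript was cut into 10 equal segments, Rrm1 had 5.06 times its mean depth in the first segment in BxC and 5.02 times in CxB. Cdc20 had 4.21 and 4.25 times its mean in the second segment, and Pcna 6.45 and 6.71 times. Plk1 peaked instead in the seventh segment, at 3.17 and 3.03 times its mean. Ccnd1 was the flattest of the 6 genes plotted, from 0.52 to 1.67 in BxC. The long 3′ UTR of Ccnd2 (4559 bases) had 0.464 of the depth of its coding bases in BxC and 0.534 in CxB. The 3′ UTR of Ccnd1 (2679 bases) had 1.15 and 1.17 times the depth of its coding bases. Depth in the 3′ UTR of Cdk1 was 0.0481 of that of the coding bases in BxC, so Cdk1 stood at 1.75 RPKM over all exons but at 5.88 RPKM over coding bases. The order of levels between genes therefore depended on which bases were counted. The ratio between the libraries changed sign over coding bases for 4 genes, Ccne2 (-0.07), Tyms (-0.03), Cdt1 (0.005) and Aurkb (0.02). The share of all annotated genes that did so was not counted.

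**Figure D5:**
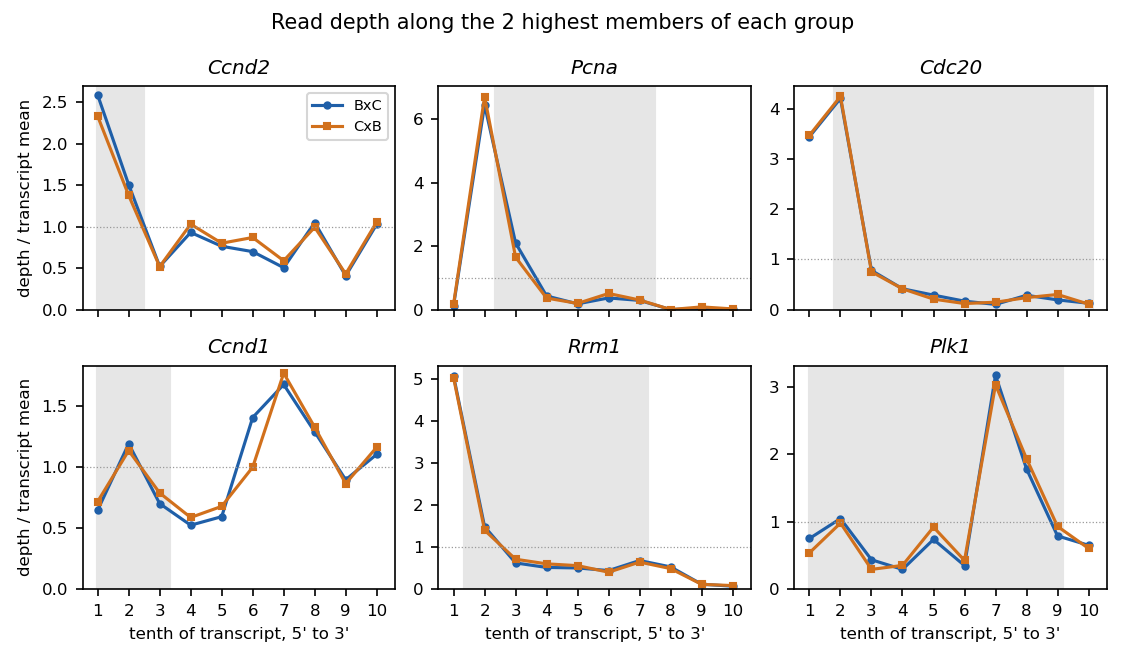
Read depth in 10 equal segments from 5′ to 3′ along the longest coding transcript, divided by the transcript's mean depth, in BxC (blue) and CxB (orange) for the 2 highest genes among D cyclins, S-phase and mitotic genes. Shading marks the coding sequence; Pcna peaks in the second segment at 6.45 and 6.71, and Plk1 in the seventh at 3.17 and 3.03.

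Spliced reads joined most annotated exons of the 44 genes. Of the 627 introns of their longest coding transcripts, 547 had at least 1 spliced read in BxC and 516 in CxB. Intron reads per kilobase had a median of 3.10% of exon reads per kilobase in BxC and 2.95% in CxB, and were above 15% in both libraries in Ccne2 (23.0% and 22.2%), Prc1 (21.9% and 28.6%) and Prim1 (19.5% and 16.9%). In Ccnb1 they were 5.80% in BxC, on 16 intron reads, and 21.0% in CxB, on 56. Annotated alternative exons of 4 genes had at least 20 junction reads in each library, where inclusion is the mean of the reads that join both sides over that mean plus the reads that skip. A coding exon of 47 bases of Aurka, at chr2:172194486-172194532 of mm9, was included at 98.0% in BxC (89.6% to 99.9%) and 96.2% in CxB (81.4% to 99.9%). Nearly all of its reads joined 1 side, 94 in BxC and 50 in CxB, against 4 and 1 on the other side and 1 that skipped in each library, and with each line counted once inclusion was 90.0% and 85.7%. A coding exon of 99 bases of Nusap1, which keeps the frame, was included at 84.6% in BxC (63.3% to 96.6%, 3 reads that skip) and 100% in CxB (from 71.2%, 0 reads that skip), and these intervals overlap. The alternative exons of Ccnb1 (183 bases, 36 and 58 reads) and Mcm7 (80 bases, 136 and 88 reads) had no read that skipped them, but all of their reads joined 1 side only. Skips outside the annotation reached at most 5 reads each, in Kif20b.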

How the data were processed

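Poly(A)+ RNA of whole E17.5 brain was sequenced in 1 BxC and 1 CxB library. By their methods, the authors aligned single-end reads of 36 bases with Novoalign (version not given in the sources used here) to gene models, splice junctions and the genome, and kept uniquely aligned reads in mm9 coordinates. They also describe other alignments and do not say which of them these files hold. The deposited alignments carry a whole-number count on each line, used here as the number of reads collapsed to it. That meaning was inferred from the values. Of the lines, 13.6% in BxC and 12.9% in CxB repeat the position and strand of another line. The methods state dUTP strand marking, yet 43.2% and 42.6% of reads over coding genes were on the gene's strand, so reads of both strands were counted and overlapping antisense transcripts cannot be told apart. The authors' catalog of imprinted genes was not used, and 0 columns were left unassigned.

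Reads were summed over the union of exons of GENCODE vM1 genes on the same build with Python 3.11.15, numpy 2.4.6, pandas 2.3.3, scipy 1.17.1 and numba 0.67.0. Ratios were scaled by the library totals and required 100 reads in each library. Called means past 0.5 on the log2 scale, with 0.25 as the second limit. A library of BxC and one of CxB allow no test. Counting was checked on made-up lines, and the intervals on simulated independent Poisson counts. Those counts hold no PCR copies and no spread between embryos, so the check does not show that the intervals suffice for these libraries. All 44 genes are named, and of each further cell cycle list the 2 highest levels and the 2 highest and 2 lowest ratios are named, with every junction alternative of at least 20 reads, except an item not reported here. Marker genes were named after their values were seen. The genes and lists were chosen with earlier results of these data known. Alternatives were distinct lines or positions, sense reads, unshared or coding or unique bases, other scalings, other read minimums and other group membership.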

Additional observations from a re-analysis of the deposited data

How the results depend on the processing

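Alternatives were run for the medians of all 44 genes, of both phases and of the 4 further cell cycle lists, not for roles or marker lists. Of these medians, that of the other cyclins and kinases changed sign (-0.007 to 0.030), and that of the other mitotic genes ranged from -0.15 to -0.05, while 8 single genes changed sign with distinct positions counted. The median log2 ratio ranged from -0.20 to -0.16 for mitotic genes and from -0.06 to -0.003 for S-phase genes, and their difference from 0.14 to 0.20, under all alternatives. The intervals used for these medians are averages over their middle genes and are wide, -0.09 to 0.44 for the difference. Staying inside them therefore shows little, and only the ranges are given. Mitotic genes below 0 numbered from 21 (coding bases) to 23 of 24 (lines, positions or sense reads). S-phase genes below 0 numbered from 10 (all reads) to 12 of 18 (lines or positions). Levels moved because other reads or bases were counted. The median RPKM in BxC and CxB was 5.28 and 5.25 for S-phase and 3.45 and 2.97 for mitotic genes with each line counted once, and 5.87 and 5.83, and 3.97 and 3.41, with distinct positions counted once, an alternative chosen after seeing the data. With sense reads only it was 1.56 and 1.65, and 0.875 and 0.810. Over coding bases it was 4.88 and 5.01, and 3.46 and 2.94. Over unique windows the S-phase median in CxB was 4.19. The count of genes past -0.5 went from 1 to 0 with lines or positions counted once or with a minimum of 1000 reads, which left 26 genes, and to 8 at a limit of 0.25. At that limit it was 4 by distinct positions. Kif23 was the gene lost. The median log2 ratio of the brakes was 0.045 with each line counted once, 0.045 with positions counted once and 0.053 over coding bases. Over the 38 genes with at least 80% unique windows, also chosen after seeing the data, 21 of 22 mitotic and 7 of 14 S-phase genes were below 0. Inclusion of the alternative exons kept within its intervals. No paired analysis was possible because there is 1 library per cross. With 1 embryo per cross, no depth of sequencing gives the spread between embryos, and a gene with 163 reads has a counting interval of -0.55 to 0.15.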
